A study of Saccharomyces cerevisiae with 24 samples.

Results

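The genes described here are the nuclear genes of Saccharomyces cerevisiae, baker's yeast, that are named MRPL or MRPS followed by a number. They encode proteins of the large (MRPL) and small (MRPS) subunit of the mitochondrial ribosome. The names alone chose them: 43 of the 7121 rows that name a gene matched, 34 MRPL and 9 MRPS genes. TPM is a transcript level corrected for gene length and scaled to a fixed total in each library. Low genes were left out by requiring 3 or more libraries with 1 TPM or more. All 43 genes met this, and 6449 genes did in all. The study sequenced poly(A) RNA from 24 cultures, 3 biological replicates in each of 8 groups. Cells were taken in starvation, from cultures of 48 h, and in log phase, from the same strains. The SD medium held 2% glucose, with lysine, uracil, leucine and histidine as supplements. The genotypes were hsh49::Q24P (strain JPY2863, a substitution in the U2 snRNP protein gene HSH49), nam8D (JPY28H5) and mud1D (JPY28A8), which lack the U1 snRNP protein genes NAM8 and MUD1, and WT (JPY10H3). Each genotype is represented by 1 strain of BY background, and every library title names the same batch.

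The mitochondrial ribosome translates the few mRNAs encoded by mitochondrial DNA, which in yeast are mostly for core subunits of the respiratory chain and the ATP synthase. All of its proteins but Var1 are encoded in the nucleus, made in the cytosol and imported into the matrix. Some have a counterpart in bacterial ribosomes, written with the prefixes u or b and the suffix m, and others occur only in mitochondrial ribosomes and are written with the prefix m. Yeast growing on glucose represses respiration, and cells that have used the glucose up depend on it.

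By these names the genes split into 29 of bacterial families and 14 that are specific to mitochondria. The match to the RefSeq annotation of the R64 assembly by gene identifier succeeded for all 43. The genes lie on 12 of the chromosomes, and their coding length ranges from 213 to 1173 bp with a median of 654 bp. MRPL44 alone among them has an intron. MRPL19 and MRPL51 overlap another annotated gene (YNL184C and YPR099C), and their values are uncertain to that extent, because the strand counted is not given in the sources used here. The build used for counting is not given there either, so the positions below are those of R64 and serve only to locate the printed sequences.

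A sequence feature shared by all 43 genes lies downstream of the coding region. Puf3 is an RNA-binding protein of the Pumilio family, known in yeast for binding mRNAs of nuclear-encoded mitochondrial proteins at an element whose core is UGUANAUA. As DNA, TGTANATA was searched on the strand of the gene in the 200 bases after the stop codon. It was found in 43 of 43 genes (100%), against 844 of 6001 nuclear protein-coding genes (14.1%). On the opposite strand of the same windows, it was present for 8 of the 43 (18.6%) and for 793 of the 6001 (13.2%). The sites below are shown because they belong to the genes with the strongest, weakest or most divergent values, with the motif in capitals. They are given 5′ to 3′ on the gene's strand.
MRPS17, chrXIII:636220-636243, minus strand: ctacactcTGTAAATAtatacaac
MRPS16, chrXVI:528884-528907, minus strand: gtatatgtTGTATATAtgttttac
MRPS16, second site, chrXVI:528843-528866, minus strand: atcagactTGTAAATAatacatct
MRPS12, chrXIV:694272-694295, minus strand: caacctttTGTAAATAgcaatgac
MRPS8, chrXIII:572764-572787, plus strand: acggaccaTGTAAATAataatatt
MRPL24, chrXIII:650859-650882, plus strand: ttttccccTGTATATAaaaaagca
MRPL24, second site, chrXIII:650883-650906, plus strand: tatctgttTGTACATAtgtaggta
MRPL4, chrXII:1015470-1015493, plus strand: ctctctccTGTAAATAtatatata
MRPL16, chrII:146903-146926, plus strand: tgtatacaTGTATATAactattga
MRPL7, chrIV:937567-937590, plus strand: attcgtcaTGTAAATAtataaact
MRPL9, chrVII:936026-936049, minus strand: tacaatcaTGTACATAcatcaata
MRPL35, chrIV:1111713-1111736, plus strand: tagtatccTGTACATAtaaaataa
MRPL32, chrIII:119209-119232, plus strand: cttaagccTGTATATAgaaactta
MRPL44, chrXIII:720857-720880, minus strand: agcaagccTGTAAATAatatatat

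The 43 genes held 53 such sites, 1 in 33 genes and 2 in 10. The first base of the motif lay between 8 and 165 bases after the stop codon, with a median of 57, and 46 of the 53 sites began within 100 bases. The form TGTAAATA occurred in 24 of the 43 genes (55.8%, against 4.3% of all), TGTACATA in 12 (27.9%, against 2.5%), TGTATATA in 14 (32.6%, against 7.2%) and TGTAGATA in 1 (2.3%, against 0.9%). The motif was also present after all 35 genes of mitochondrial ribosomal proteins with other names and after all 13 genes of mitochondrial aminoacyl-tRNA synthetases, which charge the organelle's tRNAs. It followed 15 of 19 genes of translational activators and membrane insertion, 14 of 19 of translation and assembly factors, and 11 of 17 of mitochondrial import and folding. It followed 4 of 37 nuclear genes of the respiratory chain (10.8%) and 6 of 137 genes of cytosolic ribosomal proteins (4.4%). A match is a run of letters in the reference, not a measured binding site.

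**Figure D1:**
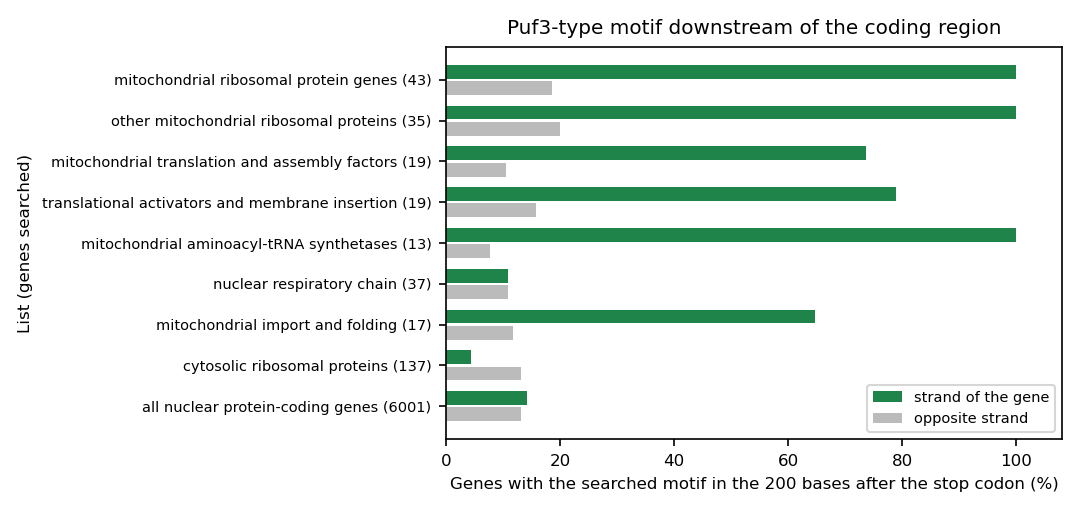
Percentage of genes in each list with the searched motif in the 200 bases after the stop codon, on the strand of the gene (green) and on the opposite strand (grey), with the number of genes searched in parentheses. The mitochondrial ribosomal protein genes stand at 100% on their own strand and at 18.6% on the opposite strand, against 14.1% and 13.2% for all nuclear protein-coding genes.

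The sequence before the coding region was less uniform. Windows of 300 bases, 250 before to 50 after the start codon, were searched on both strands for motifs of factors known for ribosomal or mitochondrial genes. TTACCCG, the core of the Reb1 site, was in 7 of 43 windows (16.3%, against 7.1% of 6001), and the core of the Abf1 site in 11 (25.6%, against 14.4%). CCAAT, bound by the Hap complex, was in 16 (37.2%, against 43.3%), and AATTTT, found before many ribosome biogenesis genes, also in 16 (37.2%, against 51.7%). GATGAG was in 8 (18.6%, against 20.4%) and GCGATGAG, which contains it, in 2 (4.7%, against 3.9%). The window of MRPS17 is shown because this gene had the largest starvation difference in the mutants hsh49::Q24P and mud1D. Its capitals mark both matches to TTACCCG, read here on the opposite strand.
MRPS17, chrXIII:636955-637254, minus strand: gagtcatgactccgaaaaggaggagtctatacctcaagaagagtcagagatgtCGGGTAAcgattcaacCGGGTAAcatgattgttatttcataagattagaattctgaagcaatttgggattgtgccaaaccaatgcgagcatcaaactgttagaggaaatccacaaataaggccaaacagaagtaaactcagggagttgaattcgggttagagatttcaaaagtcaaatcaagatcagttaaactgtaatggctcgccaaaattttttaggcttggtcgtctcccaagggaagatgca

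The labels were checked against marker genes. NAM8 was at 0.0366 to 0.197 TPM in nam8D starvation and at 43.6 to 46.9 TPM in WT starvation, and MUD1 at 3.45 to 3.82 TPM in mud1D starvation and at 64.5 to 73.4 TPM in WT starvation. HSH49 carries a substitution, so its level (74.1 to 94.9 TPM in hsh49::Q24P starvation, 63.4 to 69.5 TPM in WT starvation) does not check the label. The strains also differ in LEU2, at 465.5, 117.6 and 63.03 TPM in hsh49::Q24P log, 0.828 to 30.8 TPM in the other mutant libraries and 3979 to 5907 TPM in WT. They differ likewise in URA3, at 0.459, 0.0750 and 0.0391 TPM in hsh49::Q24P log, at 0 in the other mutant libraries and at 3.68 to 8.76 TPM in WT. The hsh49::Q24P log libraries thus stand apart from the other mutant libraries in both markers. In every comparison of a mutant with WT, the named mutation and these markers cannot be told apart. The summed level of 6 genes of mating type a cells was 229.9 to 287.8 TPM in the mutants in starvation, 468.8 to 516.6 TPM in WT starvation and 2842 to 4156 TPM in the log libraries. The meiosis regulator IME1 was at 19.5 to 72.6 TPM in the mutants in starvation and at 285.3 to 336.5 TPM in WT starvation.

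**Figure D2:**
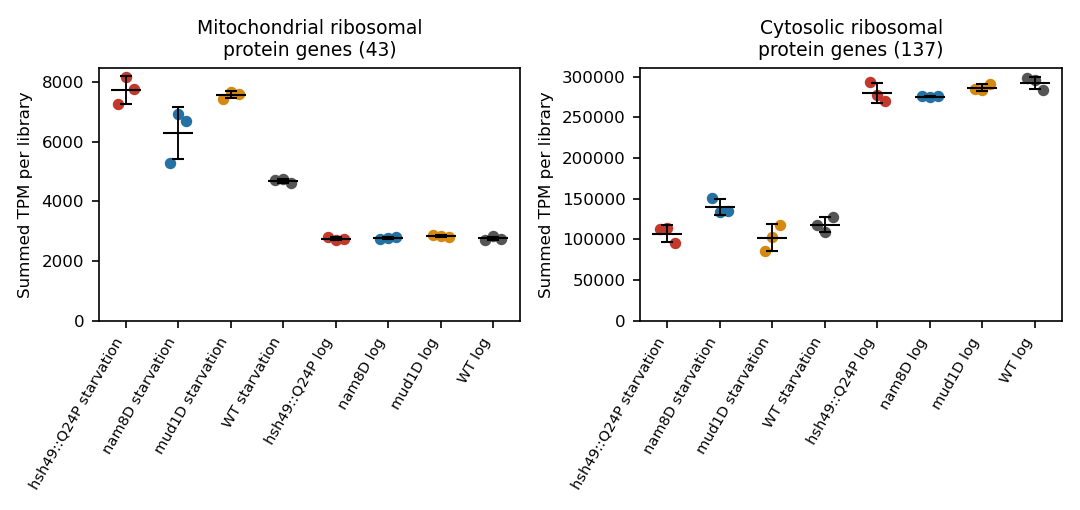
Summed TPM of the 43 mitochondrial ribosomal protein genes (left) and of 137 cytosolic ribosomal protein genes (right) in each library, with the mean and SD of 3 replicates per group. The mitochondrial sum is 5294 to 8177 TPM in the mutants in starvation and 4622 to 4741 TPM in WT starvation, all above the log libraries at 2711 to 2864 TPM.

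Together, the 43 genes took a larger part of the poly(A) RNA in starvation than in log phase, and a larger part in starved mutants than in starved WT. Their summed level was 7246, 8177 and 7749 TPM in hsh49::Q24P starvation, 5294, 6912 and 6681 TPM in nam8D starvation, 7435, 7676 and 7604 TPM in mud1D starvation, and 4726, 4741 and 4622 TPM in WT starvation. In log phase, the sum was 2796, 2711 and 2756 TPM in hsh49::Q24P, 2732, 2775 and 2808 TPM in nam8D, 2864, 2842 and 2813 TPM in mud1D, and 2720, 2832 and 2730 TPM in WT. No mutant library overlapped WT in starvation. In log phase each mutant overlapped WT, and the mud1D libraries lay above those of hsh49::Q24P and nam8D. Replicate 1 of nam8D starvation lay below the other nam8D libraries. The genes of the cytosolic ribosome took a smaller part in starvation. Their summed level in starvation was 107000 ± 10600 TPM in hsh49::Q24P, 140000 ± 9410 TPM in nam8D, 102000 ± 16000 TPM in mud1D and 118000 ± 9280 TPM in WT, and the log groups averaged 275000 to 292000 TPM (SD, n = 3 each). The cytosolic sum was 11.6 to 28.5 times the mitochondrial sum in the starvation libraries and 97.9 to 109 times in the log libraries. In bulk RNA scaled to a fixed total, fewer cells with a transcript, fewer transcripts per cell and a change in the cells' total mRNA cannot be told apart.

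In log phase the mutants did not differ detectably from WT. A call required an adjusted p under 0.05 (limma, Benjamini-Hochberg over all 6449 genes) together with a log2(TPM + 1) difference of 1 or more in size. Of 43 genes, 0 were called in any of the 3 comparisons, and 0 passed on p alone. At an unadjusted p under 0.05, the counts were 1 for hsh49::Q24P, 1 for nam8D and 0 for mud1D. Over all genes, 0.062% were called higher and 0.0465% lower in hsh49::Q24P, 0.062% and 0.062% in nam8D, and 0.109% and 0.202% in mud1D. All 3 mutant libraries lay above all 3 WT libraries for 3 genes in hsh49::Q24P (10.1% of all genes), 6 in nam8D (16.5%) and 4 in mud1D (13.3%), and below them for 3 (5.69%), 5 (18.0%) and 0 (5.04%). The median difference over the 43 genes was 0.0078 for hsh49::Q24P, -0.00032 for nam8D and 0.026 for mud1D. Among single genes, the highest and the lowest gene were MRPL1 (uL1m, a protein of the mobile stalk at the tRNA exit side) at 0.12 and MRPL4 at -0.16 in hsh49::Q24P. The same genes stood at the ends in nam8D, at 0.15 and -0.25. In mud1D the ends were MRPL44 at 0.19 and MRPL35 at -0.08.

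The levels of the genes spread widely within a library. The mean over the 12 log libraries ranged from 13.3 TPM for MRPL4 to 236 TPM for MRPS12, with a median of 56.2 TPM. MRPS12 encodes uS12m, a protein of the decoding centre. It was at 726, 707 and 791 TPM in hsh49::Q24P starvation, 482, 612 and 611 TPM in nam8D starvation, 731, 685 and 644 TPM in mud1D starvation, and 429, 403 and 365 TPM in WT starvation, against 218 to 249 TPM in the 12 log libraries. All 12 starvation libraries lay above all 12 log libraries. MRPL51 (mL43) and MRPL33 (uL30m) followed MRPS12, with means over all 24 libraries of 210 TPM and 195 TPM against 417 TPM for MRPS12. The order of MRPL51 and MRPL33 depended on the group. MRPL51 was at 209, 319 and 286 TPM in nam8D starvation, where MRPL33 was higher in each library at 260, 333 and 306 TPM. In WT starvation MRPL51 was at 273, 255 and 249 TPM and MRPL33 was lower, at 188, 179 and 171 TPM. The lowest means over all libraries were those of MRPS35 (mS45) at 52.2 TPM, MRPL32 at 45.0 TPM and MRPL4 at 28.8 TPM.

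**Figure D3:**
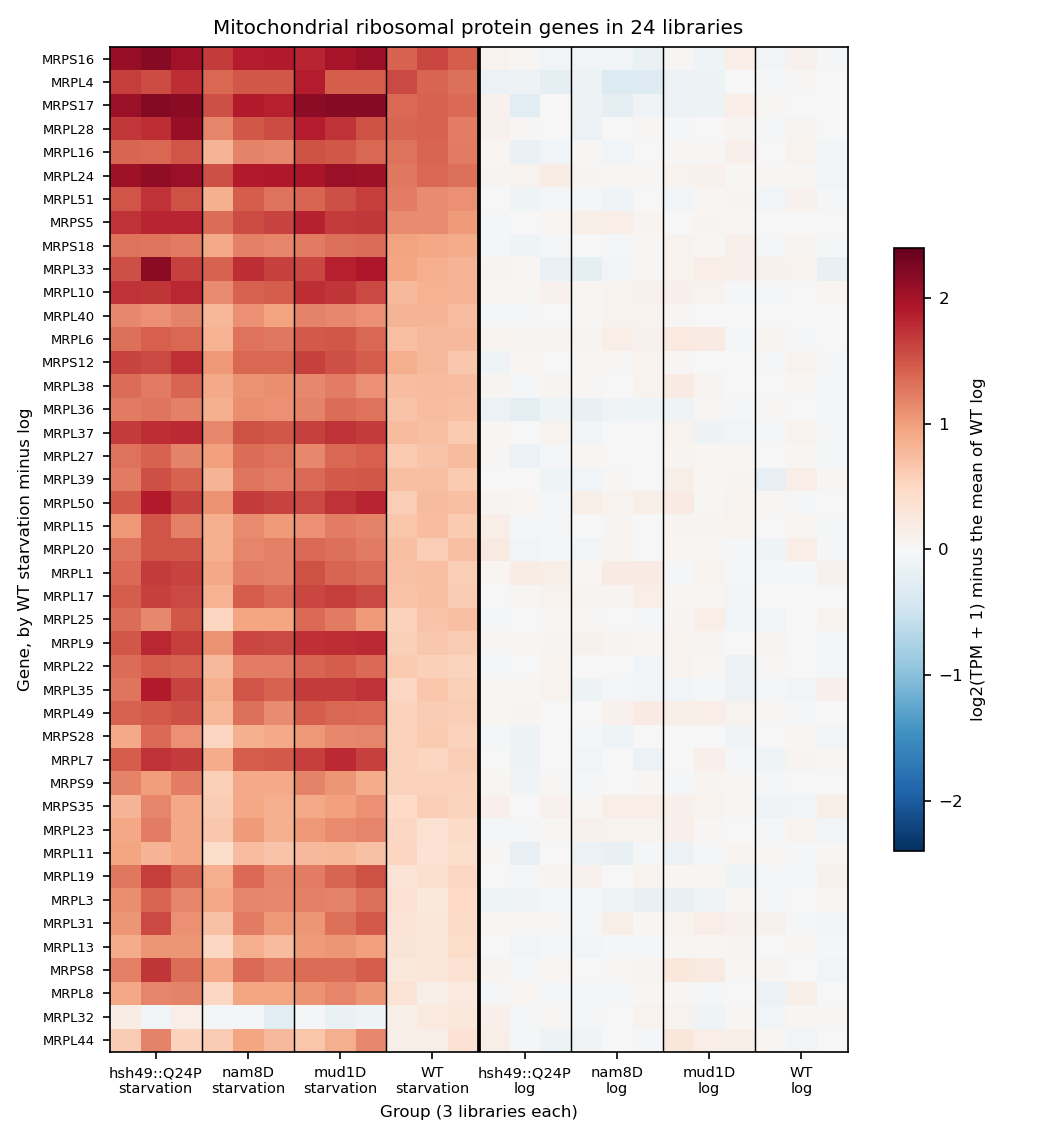
Level of each of the 43 genes (rows) in each of the 24 libraries (columns, 3 per group), as log2(TPM + 1) minus the mean of the 3 WT log libraries, with genes ordered by the WT starvation difference. The log columns are close to 0, the starvation columns are higher for 42 of the 43 genes in each mutant, and MRPL32 stays near 0 throughout.

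Most of these genes rose in starvation in the mutants, and a minority did in WT. Of 43 genes, 39 rose in hsh49::Q24P (90.7%), 27 in nam8D (62.8%), 38 in mud1D (88.4%) and 8 in WT (18.6%), and 0 fell. Over all genes tested, 28.5% rose in hsh49::Q24P, 27.4% in nam8D, 28.2% in mud1D and 26.2% in WT, so that the share of these genes in WT was below the background. The share of all genes that fell was 14.1% in hsh49::Q24P, 10.3% in nam8D, 14.9% in mud1D and 9.01% in WT. Without regard to size, 42 of 43 genes passed at a higher level in each genotype, against 53.3% of all genes in hsh49::Q24P, 55.4% in nam8D, 52.2% in mud1D and 58.7% in WT. None passed at a lower level, against 28.2% of all genes in hsh49::Q24P, 24.7% in nam8D, 28.7% in mud1D and 22.1% in WT. The starvation libraries lay above the log libraries without overlap for 42 genes in each genotype (51.5% of all genes in hsh49::Q24P, 58.0% in nam8D, 51.8% in mud1D and 61.5% in WT), and below them for 1 gene, MRPL32, in nam8D (27.6% of all). The median difference over the 43 genes was 1.40 in hsh49::Q24P (range 0.05 to 2.21), 1.10 in nam8D (-0.13 to 1.92), 1.31 in mud1D (-0.11 to 2.21) and 0.68 in WT (0.21 to 1.49). The median gene of the whole table also differed between the growth states, by 0.39, 0.43, 0.36 and 0.47 in hsh49::Q24P, nam8D, mud1D and WT. Relative to it, the median over the 43 genes was 1.01 in hsh49::Q24P, 0.67 in nam8D, 0.96 in mud1D and 0.20 in WT. In each mutant 42 of the 43 genes exceeded the median gene, and in WT 33 did.

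These counts depend on how the libraries are scaled. With each library centred on its median gene, 28 genes rose in hsh49::Q24P (19.4% of all genes did), 6 in nam8D (15.8%), 21 in mud1D (18.7%) and 1 in WT (13.1%). The table also holds 92 spike-in RNAs whose amounts are not given in the sources used here, and their sum was 13440 to 22810 TPM in the mutants in starvation, 13120 to 16280 TPM in WT starvation and 8033 to 12570 TPM in the log libraries. Scaled to that sum, 1 gene rose in hsh49::Q24P (8.13% of all genes did), 0 in nam8D (7.77%), 3 in mud1D (10.5%) and 6 in WT (17.2%). By the same scaling 1 gene fell in hsh49::Q24P (36.7% of all genes did), 1 in nam8D (33.4%), 0 in mud1D (31.4%) and 0 in WT (12.7%). The median gene then differed by -0.63 in hsh49::Q24P, -0.54 in nam8D, -0.42 in mud1D and 0.20 in WT, and the median over the 43 genes relative to it was 0.92, 0.57, 0.87 and 0.18. Scaling a whole library moves all its genes together, so these relative values are close to those above by construction.

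Among the 9 genes of the small subunit, 8 rose in hsh49::Q24P, 6 in nam8D, 8 in mud1D and 3 in WT. MRPS17 encodes uS17m, whose bacterial counterpart binds the ribosomal RNA early in assembly. It was at 223, 246 and 239 TPM in hsh49::Q24P starvation, 154, 198 and 193 TPM in nam8D starvation, 234, 240 and 241 TPM in mud1D starvation, and 136, 141 and 135 TPM in WT starvation. In log phase it was at 56.6, 43.4 and 51.7 TPM in hsh49::Q24P, 48.1, 44.9 and 49.4 TPM in nam8D, 47.2, 48 and 58.3 TPM in mud1D, and 53.0, 51.7 and 52.2 TPM in WT. The groups of the growth states did not overlap in any genotype, and each starved mutant lay above starved WT. The starvation difference was 2.21 ± 0.096 in hsh49::Q24P (SE; adjusted p = 2.7e-14 by limma), 1.91 in nam8D, 2.21 in mud1D and 1.38 in WT, and MRPS17 rose in all 4 genotypes.

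MRPS16 (bS16m) was at 346, 370 and 331 TPM in hsh49::Q24P starvation, 260, 302 and 306 TPM in nam8D starvation, 290, 319 and 339 TPM in mud1D starvation, and 217, 247 and 223 TPM in WT starvation, against 72.4 to 90.7 TPM in the log libraries. Its rise in WT, 1.49 ± 0.083 (SE; limma adjusted p = 1.8e-12), was the largest of the 43 genes there. In the mutants it rose by 2.08 for hsh49::Q24P, 1.92 for nam8D and 1.92 for mud1D. MRPS8 (uS8m) differed less in WT. It was at 94.7, 135 and 104 TPM in hsh49::Q24P starvation, 76.4, 105 and 97.0 TPM in nam8D starvation, 104, 104 and 112 TPM in mud1D starvation, and 48.2, 49.4 and 52.1 TPM in WT starvation, against 38.3 to 48.1 TPM in the log libraries. It rose by 1.40 for hsh49::Q24P, 1.15 for nam8D and 1.22 for mud1D, while its WT difference was 0.30 (limma adjusted p = 0.016). MRPS35 was the only small subunit gene outside the calls in hsh49::Q24P and in mud1D, at 0.89 and 0.92, with 0.68 in nam8D and 0.53 in WT.

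Among the 34 genes of the large subunit, 31 rose in hsh49::Q24P, 21 in nam8D, 30 in mud1D and 5 in WT. MRPL24 (bL28m) was at 142, 153 and 144 TPM in hsh49::Q24P starvation, 101, 130 and 131 TPM in nam8D starvation, 136, 146 and 142 TPM in mud1D starvation, and 82.8, 89.5 and 86.5 TPM in WT starvation, against 32.5 to 38.5 TPM in the log libraries. It rose by 1.97 ± 0.075 in hsh49::Q24P (SE; limma adjusted p = 3.4e-15), 1.75 in nam8D, 1.95 in mud1D and 1.32 in WT. MRPL4 encodes uL29m, a protein near the exit of the polypeptide tunnel, and had the lowest mean level of the 43 genes. It was at 48, 44.9 and 52.2 TPM in hsh49::Q24P starvation, 39.5, 42.4 and 42.5 TPM in nam8D starvation, 56.3, 41.4 and 41.3 TPM in mud1D starvation, and 45.3, 39.7 and 37.6 TPM in WT starvation. Its log libraries lay between 11.4 and 14.9 TPM. MRPL4 rose by 1.83 in hsh49::Q24P, 1.70 in nam8D, 1.67 in mud1D and 1.43 in WT. Unlike MRPS17 and MRPL24, its starved mutants overlapped starved WT.

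**Figure D4:**
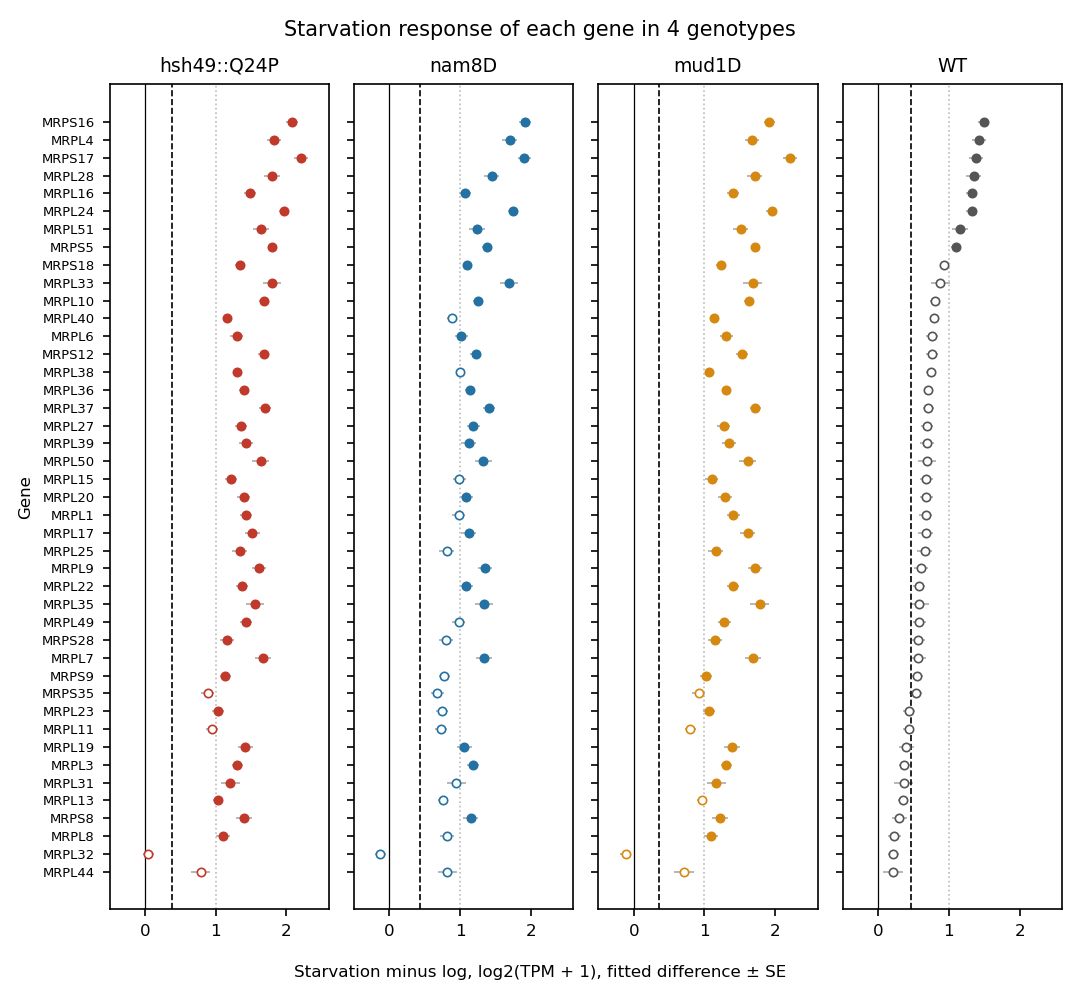
Fitted starvation minus log difference of each gene on the log2(TPM + 1) scale, with its standard error, in each genotype. Filled points passed the call, the dashed line is the median of all tested genes and the dotted line marks a difference of 1. Most mutant points lie to the right of both lines, 8 WT points are filled, and MRPL32 lies near 0 in the 3 mutants.

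At the other end of the WT order stood MRPL8, MRPL32 and MRPL44. MRPL8 (bL17m) was at 158, 186 and 190 TPM in hsh49::Q24P starvation, 117, 159 and 161 TPM in nam8D starvation, 176, 187 and 172 TPM in mud1D starvation, and 104, 90.6 and 96.8 TPM in WT starvation, against 75.1 to 90.8 TPM in the log libraries. It rose in hsh49::Q24P (1.10) and mud1D (1.09), reached 0.81 in nam8D, and its 0.23 in WT turned negative with median centring (-0.25), with quantile normalization (-0.19) and with spike-in scaling (-0.07). MRPL11, for the stalk base protein uL10m, was among the 3 lowest in nam8D and mud1D, with 0.95 in hsh49::Q24P, 0.73 in nam8D, 0.80 in mud1D and 0.43 in WT. Under spike-in scaling MRPL11 was lower in starvation in nam8D (-0.34) and mud1D (-0.07), and MRPS35 in hsh49::Q24P (-0.21) and nam8D (-0.38).

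MRPL32 stood apart from all the others. It encodes bL32m, whose precursor is known in yeast to be cleaved in the matrix by the m-AAA protease before it joins the large subunit. Its level was 50.1, 42.3 and 49.5 TPM in hsh49::Q24P starvation, 42.7, 42.7 and 37.0 TPM in nam8D starvation, 43.5, 39.4 and 40.9 TPM in mud1D starvation, and 49, 52 and 53.2 TPM in WT starvation. In log phase it was at 48.5, 43 and 44.9 TPM in hsh49::Q24P, 42.8, 44.6 and 46.8 TPM in nam8D, 47.3, 40.9 and 45.8 TPM in mud1D, and 42.4, 45.5 and 45.0 TPM in WT. All 24 libraries thus lay between 37.0 and 53.2 TPM. The starvation difference was 0.05 for hsh49::Q24P, -0.13 for nam8D and -0.11 for mud1D, none of which passed (limma adjusted p = 0.52, 0.13 and 0.20), and 0.21 in WT, which passed without reaching a call (limma adjusted p = 0.019). This pass was lost without replicate 1 of WT log or replicate 3 of WT starvation (0.18 each; limma adjusted p = 0.073 and 0.066). Relative to the median gene it was lower in starvation in each genotype, and scaled to the spike-ins it was called lower in hsh49::Q24P (-1.04) and nam8D (-1.19). In mud1D the spike-in value was -0.97, just short of the size of 1 that a call required. Over the 8 group means, the profile of MRPL32 had a Pearson r of -0.17 with the mean profile of the other 42 genes, while the next lowest were 0.95 for MRPL16 and for MRPL44, and the highest 0.999 for MRPL15 and MRPS12. These r are descriptions over 8 points that share their libraries. The Puf3-type motif is present after MRPL32 as it is after the other 42.

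MRPL44 (mL53), the gene with the intron, was near the low end in 3 genotypes. It was at 83.8, 126 and 80.8 TPM in hsh49::Q24P starvation, 84.0, 106 and 94.5 TPM in nam8D starvation, 86.7, 101 and 123 TPM in mud1D starvation, and 60.4, 60.3 and 69.3 TPM in WT starvation, against 49.8 to 65.8 TPM in the log libraries. It passed at a higher level in the mutants, with 0.79 ± 0.14 for hsh49::Q24P, 0.82 for nam8D and 0.71 for mud1D, and did not pass in WT (0.21, limma adjusted p = 0.17). Scaled to the spike-ins, its difference was -0.31 in hsh49::Q24P, -0.17 in mud1D and -0.09 in WT, and the WT value was also negative with median centring (-0.27) and quantile normalization (-0.28). None of these 5 values passed. Because all 3 mutations affect proteins of the U1 or U2 snRNP, which recognise the start of an intron and its branch point, the intron is printed, with the 5′ splice site, the branch point sequence and the final AG in capitals. Its 5′ splice site GTATGT and branch point TACTAAC are the letters most common in yeast introns. The values here count reads over the gene and do not separate spliced from unspliced RNA.
MRPL44 intron, chrXIII:721199-721345, minus strand: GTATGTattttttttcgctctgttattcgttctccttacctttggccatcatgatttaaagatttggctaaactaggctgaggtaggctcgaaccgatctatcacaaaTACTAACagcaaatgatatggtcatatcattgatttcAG

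Starved mutants were then set against starved WT. These 3 comparisons share the WT libraries, so each is given on its own. In hsh49::Q24P, 6 of 43 genes rose (3.94% of all genes did), 41 passed at a higher level (25.1% of all) and 0 at a lower level (35.1% of all), with a median difference of 0.71. In mud1D, 5 rose (4.57% of all), 40 passed at a higher level (27.6% of all) and 1 at a lower level (37.0% of all), with a median of 0.68. In nam8D, 0 rose (4.39% of all), and by limma 35 passed at a higher level (27.8% of all) and 2 at a lower level (32.2% of all; 1 without replicate 1 of nam8D starvation), with a median of 0.41 and 38 genes at an unadjusted p under 0.05. The median of all genes was between -0.096 and -0.032 in these comparisons, and 0 of the 43 genes fell in any of them (7.41% of all genes fell for hsh49::Q24P, 7.86% for nam8D and 8.87% for mud1D). All 3 mutant libraries lay above all 3 WT libraries for 40 genes in hsh49::Q24P (25.3% of all genes), 33 in nam8D (30.9%) and 40 in mud1D (28.6%). They lay below all 3 WT libraries for 0 genes in hsh49::Q24P (35.5% of all genes), 2 in nam8D (37.2%) and 1 in mud1D (37.8%). Scaled to the spike-ins, 0 of the 43 genes were called in any of the 3 by limma (1.54% of all genes rose and 17.2% fell in hsh49::Q24P, 2.05% and 16.5% in nam8D, 2.50% and 13.0% in mud1D), and the median became 0.28 for hsh49::Q24P, -0.015 for nam8D and 0.47 for mud1D, against a median gene of -0.47, -0.42 and -0.29. Among the 4 sporulation markers, whose sum was 26.2 to 82.8 TPM in the starved mutants and 296.8 to 349.3 TPM in starved WT, IME1 made up most of the sum. The means of SPO11 were 1.85, 1.87 and 1.95 TPM in the mutants and 1.73 TPM in WT, those of SPS4 were 0.521, 0.537 and 0.868 TPM in the mutants and 0.887 TPM in WT, and those of NDT80 were 6.25, 5.41 and 5.85 TPM in the mutants and 9.67 TPM in WT. The summed markers of mating type alpha were at 10.99 to 17.55 TPM in the mutants and 34.5 to 42.3 TPM in WT, and those of mating type a were also lower in the mutants, as given above. The part of these in the differences was not tested.

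The genes that rose over WT in starvation included genes of both subunits. MRPL7 encodes uL5m of the central protuberance. It was at 119, 145 and 140 TPM in hsh49::Q24P starvation, 80.3, 120 and 121 TPM in nam8D starvation, 138, 152 and 136 TPM in mud1D starvation, and 63.8, 61.6 and 65.6 TPM in WT starvation. Each mutant lay above WT, with nam8D replicate 1 nearest to it, and MRPL7 rose over WT by 1.06 ± 0.11 in hsh49::Q24P (SE; limma adjusted p = 1.5e-07) and 1.14 in mud1D, with 0.71 in nam8D. MRPL9 encodes uL3m, which reaches towards the peptidyl transferase centre. It was at 214, 267 and 241 TPM in hsh49::Q24P starvation, 161, 231 and 228 TPM in nam8D starvation, 256, 261 and 262 TPM in mud1D starvation, and 113, 118 and 115 TPM in WT starvation. MRPL9 rose by 1.05 in hsh49::Q24P and by 1.16 ± 0.098 in mud1D (SE; limma adjusted p = 5.4e-09), with 0.81 in nam8D.

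MRPL35 (mL38) was at 106, 162 and 134 TPM in hsh49::Q24P starvation, 79.1, 124 and 115 TPM in nam8D starvation, 139, 139 and 144 TPM in mud1D starvation, and 60.5, 67.9 and 64.2 TPM in WT starvation, a rise over WT of 1.03 in hsh49::Q24P and 1.12 in mud1D, with 0.69 in nam8D. MRPS8 rose over WT by 1.12 ± 0.11 in hsh49::Q24P (SE; limma adjusted p = 4.9e-08) and 1.08 in mud1D, and was the highest of the 43 in nam8D at 0.87. MRPL19 (uL11m, at the base of the stalk) and MRPL37 (mL54) rose over WT in hsh49::Q24P by 1.03 and 1.04, and MRPL50 (bL9m) in mud1D by 1.03. Without replicate 2 of hsh49::Q24P starvation, 2 of the 43 genes rose over WT in hsh49::Q24P. That share is near the 3.94% of all genes that rose with every library kept. The number in mud1D was 8 without replicate 1 of mud1D starvation (4.57% of all genes rose with every library kept).

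MRPL16 and MRPL32 were the genes that passed at a lower level than WT in a starved mutant. MRPL16 encodes uL16m, which lies beside the peptidyl transferase centre. It was at 171, 168 and 184 TPM in hsh49::Q24P starvation, 114, 147 and 143 TPM in nam8D starvation, 186, 181 and 167 TPM in mud1D starvation, and 160, 171 and 154 TPM in WT starvation, against 57.1 to 69.6 TPM in the log libraries. Starved hsh49::Q24P and mud1D overlapped starved WT, and nam8D lay below it. The difference from WT was 0.11 ± 0.082 in hsh49::Q24P (SE; limma adjusted p = 0.26) and 0.14 in mud1D (limma adjusted p = 0.14), while nam8D passed at a lower level (-0.27, limma adjusted p = 0.0078). Without replicate 1 of nam8D starvation, the library with the lowest MRPL16 among them, the difference in nam8D was -0.15 and did not pass (limma adjusted p = 0.068). MRPL32 also passed at a lower level than WT in nam8D (-0.33) and mud1D (-0.31), and its -0.12 in hsh49::Q24P did not pass. Leaving out each library in turn kept MRPL32 below WT past the test in nam8D and mud1D.

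The difference between the responses was tested as an interaction, the starvation difference of a mutant minus that of WT. In hsh49::Q24P, 4 genes rose by this measure (3.35% of all genes did), 41 passed with a larger response (18.0% of all) and 0 with a smaller (1808 of the 6449 genes did). In mud1D, 4 rose (3.99% of all), 38 passed with a larger response (19.7% of all) and 1 with a smaller (30.0% of all). In nam8D, 0 rose (4.22% of all), and by limma 31 passed with a larger response (22.2% of all) and 1 with a smaller (25.2% of all), with 33 at an unadjusted p under 0.05. The median interaction was 0.69 for hsh49::Q24P, 0.43 for nam8D and 0.62 for mud1D, against a median gene of -0.11, -0.024 and -0.12. The 4 genes in hsh49::Q24P were MRPL7 (1.11), MRPS8 (1.10), MRPL9 (1.01) and MRPL19 (1.01), and the 4 in mud1D were MRPL35 (1.21), MRPL7 (1.12), MRPL9 (1.12) and MRPL37 (1.01). The 1 gene with a smaller response than WT was MRPL32, in nam8D (-0.34, limma adjusted p = 0.016) and in mud1D (-0.32, limma adjusted p = 0.021). In nam8D it no longer passed without replicate 3 of nam8D starvation (-0.27, limma adjusted p = 0.053). In mud1D it no longer passed without replicate 1 of WT log (-0.29, limma adjusted p = 0.054), replicate 1 of mud1D log (-0.28, limma adjusted p = 0.058) or replicate 2 of mud1D starvation (-0.29, limma adjusted p = 0.055). Leaving out replicate 2 of hsh49::Q24P starvation left 1 of the 4 calls in that mutant, and leaving out its replicate 1 gave 8. That 1 call is a smaller share than the 3.35% of all genes called with every library kept. Scaled to the spike-ins, the count was 0 in hsh49::Q24P and mud1D (39.8% and 28.3% of all genes then had a called smaller response, and 0.853% and 1.30% a larger one), 2 genes had a called smaller response in nam8D (33.0% of all), and the median interaction was -0.12 for hsh49::Q24P, -0.35 for nam8D and 0.046 for mud1D, against a median gene of -0.86, -0.74 and -0.65.

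The starved mutants were also compared with each other, in 3 comparisons added after the data had been seen. Between hsh49::Q24P and mud1D no gene passed by limma (2 at an unadjusted p under 0.05), and the median difference was -0.0070, with a range of -0.12 for MRPL9 to 0.19 for MRPL32. In this comparison 0.217% of all genes rose and 0.0465% fell. Set against nam8D, hsh49::Q24P had 0 called genes (1.01% of all genes rose and 0.186% fell) and 29 that passed at a higher level (8.47% of all), and mud1D had 0 called genes (0.729% rose and 0.388% fell) and 27 that passed (8.54% of all). These 2 comparisons share the nam8D libraries, and replicate 1 of nam8D starvation stood apart from the others. Without it, 11 genes passed in hsh49::Q24P and 4 in mud1D, and the medians were 0.17 and 0.15 in place of 0.29 and 0.27. The 4 in mud1D are a share near the 8.54% of all genes that passed with every library kept. The 11 in hsh49::Q24P are a larger share than the 8.47% there. The count for hsh49::Q24P was also 17 without replicate 3 of hsh49::Q24P starvation, and that for mud1D 17 without replicate 1 and 12 without replicate 2 of mud1D starvation. The genes with the highest and lowest difference were MRPL25 (mL59) at 0.53 and MRPL44 at 0.01 for hsh49::Q24P, and MRPL35 at 0.43 and MRPL32 at 0.02 for mud1D. The median SD between replicates on the log2 scale was 0.20 for the 43 genes in nam8D starvation, against 0.12 for all genes there, whereas in the other 7 groups it was lower for the 43 genes than for all genes.

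**Figure D5:**
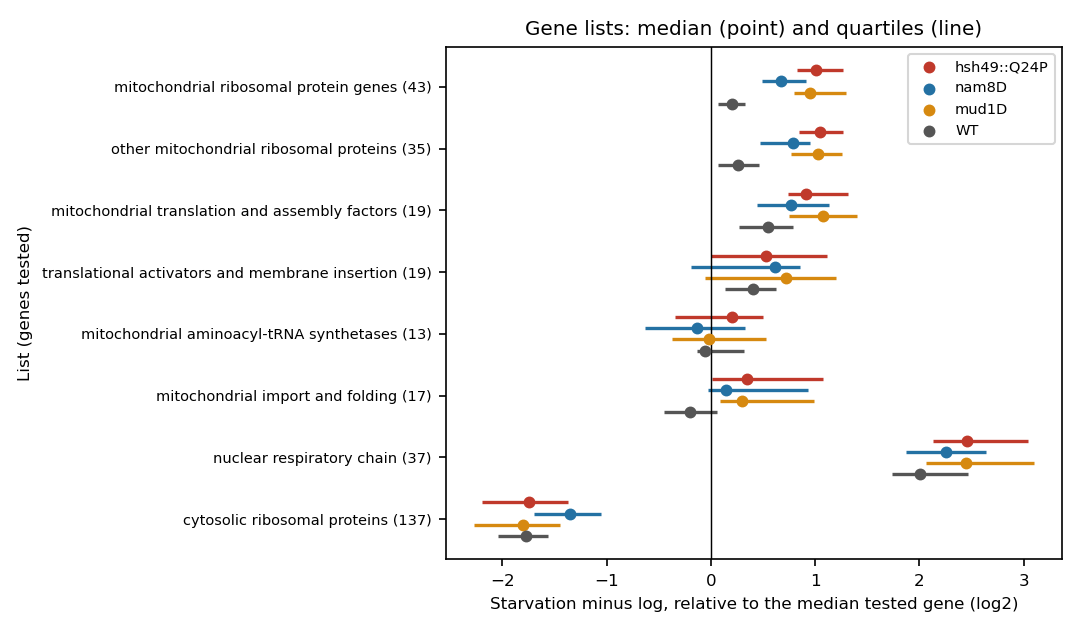
Starvation minus log difference of 8 gene lists in each genotype, relative to the median of all tested genes, with the median of the list as a point and its quartiles as a line. The genes described here and the other mitochondrial ribosomal protein genes lie at 0.67 to 1.05 in the mutants and at 0.20 to 0.26 in WT, the respiratory chain lies above 2 in each genotype and the cytosolic ribosomal proteins lie below -1.

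The rest of the mitochondrial translation machinery was described by counts over gene lists. The shares of all tested genes that rose in starvation were 28.5% in hsh49::Q24P, 27.4% in nam8D, 28.2% in mud1D and 26.2% in WT. Among the 35 mitochondrial ribosomal protein genes with other names, 31 rose in starvation in hsh49::Q24P, 23 in nam8D, 31 in mud1D and 8 in WT. The 8 in WT were a smaller share than over all genes. The medians of these 35 genes were 1.43, 1.22, 1.39 and 0.73. YML6, for uL4m, was the largest rise among them in the mutants, by 2.24 in hsh49::Q24P, 2.28 in nam8D, 2.30 in mud1D and 1.06 in WT, and IMG2 rose by 2.11, 1.91 and 2.16 in the mutants with 0.79 in WT. Of 19 translation and assembly factors, 14 rose in hsh49::Q24P, 12 in nam8D, 14 in mud1D and 11 in WT. RSM22, an assembly factor of the small subunit, rose by 3.24 in hsh49::Q24P, 3.30 in nam8D, 3.24 in mud1D and 1.41 in WT, and MEF2, the factor that recycles mitochondrial ribosomes, by 2.84, 2.21, 2.92 and 2.17. Of 19 genes of translational activators and membrane insertion, 9 rose in hsh49::Q24P, 10 in nam8D, 10 in mud1D and 7 in WT, among them MBA1, a ribosome receptor of the inner membrane, by 1.98, 1.67, 2.05 and 1.13. The 13 mitochondrial aminoacyl-tRNA synthetase genes all have the motif after the stop codon. Of these, 3 rose in hsh49::Q24P, 2 in nam8D, 3 in mud1D and 0 in WT, each a smaller share than over all genes. The medians of the synthetase genes relative to the median gene were 0.20 in hsh49::Q24P, -0.13 in nam8D, -0.013 in mud1D and -0.057 in WT. The lysine enzyme gene MSK1 was among the rises (1.5, 1.18 and 1.72 in the mutants, 0.33 in WT).

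The products of mitochondrial translation join subunits from nuclear genes. All 37 nuclear respiratory chain genes rose in starvation in each genotype, with medians of 2.84 in hsh49::Q24P, 2.69 in nam8D, 2.80 in mud1D and 2.48 in WT, and 4 of them have the motif after the stop codon. Over all genes, 26.2% (WT) to 28.5% (hsh49::Q24P) rose. Of 17 genes of mitochondrial import and folding, 8 rose in each mutant and 0 in WT, where 11 passed at a higher level (58.7% of all genes did). SSC1, the matrix Hsp70, rose by 2.04 for hsh49::Q24P, 1.95 for nam8D and 2.53 for mud1D, with 0.86 in WT. Of the 137 cytosolic ribosomal protein genes, 101 fell in hsh49::Q24P (14.1% of all genes fell), 62 in nam8D (10.3%), 111 in mud1D (14.9%) and 113 in WT (9.01%). Their medians were -1.35, -0.92, -1.45 and -1.30. Many of the cytosolic genes are near-identical pairs whose reads the counting may have split between copies. VAR1, the one ribosomal protein gene on mitochondrial DNA, was at 0.524 ± 0.169 TPM in hsh49::Q24P starvation, 0.769 ± 0.0455 TPM in nam8D starvation, 0.795 ± 0.15 TPM in mud1D starvation and 0.599 ± 0.229 TPM in WT starvation (SD, n = 3 each), and at 0.111 to 0.18 TPM on average in the log groups. The mitochondrial ribosomal RNAs averaged 0.811 to 4.29 TPM (15S) and 2.93 to 14.7 TPM (21S) over the 8 groups. Poly(A) selection leaves most mitochondrial transcripts out, so these values do not measure the supply of that protein.

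Of the regulators known for ribosomal or mitochondrial genes, PUF3 itself was higher in the starved mutants. It was at 32.6, 39.7 and 38.9 TPM in hsh49::Q24P starvation, 31.4, 38.1 and 40.6 TPM in nam8D starvation, 44.4, 42.3 and 42.95 TPM in mud1D starvation, and 14.8, 15.4 and 18.1 TPM in WT starvation, against 8.25 to 11.1 TPM in the log libraries. Starved mutants, starved WT and log libraries did not overlap. PUF3 rose in starvation by 1.83 for hsh49::Q24P, 1.73 for nam8D and 2.00 for mud1D, and passed with 0.77 in WT. Over WT in starvation it rose by 1.15, 1.14 and 1.37. HAP4, the activating subunit of the Hap complex, rose in starvation by 2.02 for hsh49::Q24P, 1.63 for nam8D and 2.10 for mud1D, with 0.76 in WT, and its replicate 2 in hsh49::Q24P starvation (1179 TPM) was far above the other libraries of that group (374.7 and 457.2 TPM). SFP1, an activator of ribosomal protein genes, rose in each genotype, by 1.10, 1.17, 1.21 and 1.24 in hsh49::Q24P, nam8D, mud1D and WT. IFH1, a coactivator of those genes, also rose in each (1.47, 2.10, 1.77 and 1.11), and its partner FHL1 passed with 0.87, 0.97, 0.90 and 0.64. ABF1 was lower in the starved mutants than in starved WT, by -1.11 for hsh49::Q24P, -1.20 for nam8D and -1.49 for mud1D. It fell in all 3 of these comparisons with WT. Between the growth states, ABF1 in WT was higher in starvation (48.98 to 58.73 TPM) than in log phase (24.41 to 28.13 TPM). In each mutant, its starvation and log libraries overlapped. REB1 passed at a lower level in the starved mutants than in starved WT (-0.24, -0.44 and -0.22). All values of these regulators are on the deposited TPM scale, and scaling to the spike-ins would move them together with all other genes. No relation of these mRNAs to the 43 genes was tested.

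Upstream neighbours were looked at for comparison. For plus-strand genes, the neighbour was the preceding gene with the last start coordinate, which need not be the nearest where genes overlap. By this choice, 26 of the 43 genes (60.5%, against 51.8% of all) have an upstream neighbour on the opposite strand in R64, so that both are transcribed away from a common region. Of the 22 such neighbours that passed the filter, 6 rose (27.3%) and 4 fell (18.2%) in starvation in hsh49::Q24P, 6 rose (27.3%) and 2 fell (9.1%) in nam8D, 7 rose (31.8%) and 4 fell (18.2%) in mud1D, and 4 rose (18.2%) and 1 fell (4.5%) in WT. Over all genes the shares that rose were 28.5%, 27.4%, 28.2% and 26.2%, and those that fell 14.1%, 10.3%, 14.9% and 9.01%, so the neighbours' counts, of 22 genes, are near the background. URA7, for CTP synthase, faces MRPL16 across a gap of 458 bp, and it fell in starvation in each genotype (-4.95 in hsh49::Q24P, -4.04 in nam8D, -4.52 in mud1D and -2.31 in WT on the log2 scale), whereas MRPL16 rose by 1.49, 1.07, 1.40 and 1.32. CDC10, the septin gene that faces MRPL32 at 271 bp, passed at a lower level in each genotype (-0.77, -0.78, -0.79 and -0.62).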

How the data were processed

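Per the labels' protocols, 1 µg of DNase-treated RNA, from a hot acid phenol extraction, entered poly(A) selection and a strand-specific library preparation. Tools listed in the submitters' processing notes are STAR 2.7.9a, Trimmomatic 0.39 and FastQC 0.11.9. The authors deposited a single table of TPM values, which add up to between 999639 and 999881 per library. Counting tool settings, annotation, strand and genome build are not given in the sources used here. The table holds no counts, the depth is therefore unknown, and intervals or floors from counting are not possible. Spike-in, origin, repeat and spacer rows and 4 empty lines were left out.

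Values were tested as log2(TPM + 1), a pseudocount of 1, with limma 3.58.1 in R 4.3.3, with a mean for each of 8 groups and an intensity trend (16 residual degrees of freedom, 19.4 with the prior). Each comparison had its p-values adjusted (Benjamini-Hochberg) across 6449 genes. "Rose" and "fell" mean an adjusted p under 0.05 and a log2 difference of at least 1, and "passed" means the p alone. A difference on the log2(TPM + 1) scale understates the change of low genes. Figures and summaries used Python 3.11.15 with pandas 2.3.3, numpy 2.4.6 and matplotlib 3.10.9. The fit was tested on simulated data with independent noise and no shift of whole libraries, so that test does not bear on the scaling.

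The labels call the libraries biological replicates. Their numbers were not taken as pairs. Members were matched by name alone, but the name rule and the lists were chosen with earlier results of these data known. In addition, 2 analyses, the motif after the stop codon and the mutants set against each other, were chosen with the values already seen. Genes were named by rule: the 3 highest and 3 lowest per starvation comparison, called genes in the others (at most 2 from each end where more than 4 were called, otherwise the extremes), the extremes of level and profile, up to 2 called genes per list, label checks and regulators. MRPL37 and MRPL9 in hsh49::Q24P, MRPL35 in mud1D, and the neighbours URA7 and CDC10 were named outside the rule after their values were seen. Alternatives were other pseudocounts, filters, scalings, a replicate block, fits on the groups compared and leaving out libraries.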

Additional observations from a re-analysis of the deposited data

Results flagged for a closer look

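The responses of 6 genes differed between a mutant and WT by the interaction test, with a difference of at least 1. In hsh49::Q24P these were MRPL7 (1.11), MRPS8 (1.1), MRPL9 (1.01) and MRPL19 (1.01). In mud1D they were MRPL35 (1.21), MRPL7 (1.12), MRPL9 (1.12) and MRPL37 (1.01). MRPL19 overlaps another annotated gene, so its value is uncertain. In starvation, the WT libraries also differ from the mutants in LEU2, URA3 and IME1, whose part was not tested.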

How the results depend on the processing

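The counts of called genes stayed within 1.5 times under a pseudocount of 0.1, a minimum of 10 TPM, no filter, no intensity trend, fits on the groups compared only, and without replicates 1 and 2 of hsh49::Q24P log, the libraries with the most LEU2 among the mutants. With the replicate number as a block, the starvation counts were 39 in hsh49::Q24P, 27 in nam8D, 38 in mud1D and 8 in WT, the counts over WT in starvation 6, 0 and 5, and the interaction counts 4, 0 and 4, so the block changed no count. Same-numbered starvation and log libraries of a genotype correlated between -0.226 and 0.293 in their deviations from the group means, so the numbers were not taken as pairs. A pseudocount of 5 left 2 interaction calls in hsh49::Q24P. Median centring gave 6 rises in nam8D (15.8% of all genes rose), 21 in mud1D (18.7%) and 1 in WT (13.1%) in starvation. Over starved WT it gave 12 in hsh49::Q24P (5.35% of all genes rose) and 10 in mud1D (5.83%). Its interaction counts were 12 in hsh49::Q24P and 9 in mud1D. Of all genes, 4.87% and 5.61% then had a called larger response, and 5.99% and 7.24% a smaller one. Quantile normalization gave 18 rises in hsh49::Q24P (18.7% of all genes rose), 6 in nam8D (15.8%), 16 in mud1D (18.1%) and 1 in WT (13.0%). Spike-in scaling gave 2 calls in hsh49::Q24P, 1 in nam8D (a fall) and 3 in mud1D in starvation, 0 over starved WT in hsh49::Q24P and mud1D, and interaction counts of 0 in hsh49::Q24P, 2 in nam8D (falls) and 0 in mud1D. Called at any size, the starvation count was 42 in nam8D and in WT. The counts over starved WT were then 41 for hsh49::Q24P, 37 for nam8D and 41 for mud1D, interaction counts were 41, 32 and 39, and those over nam8D 29 in hsh49::Q24P and 27 in mud1D.

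Leaving out each library in turn gave 38 to 39 rises in hsh49::Q24P, 24 to 32 in nam8D, 37 to 38 in mud1D and 8 to 8 in WT in starvation. It gave 2 to 8 in hsh49::Q24P, 0 to 1 in nam8D and 4 to 8 in mud1D over starved WT, and interaction counts of 1 to 8 in hsh49::Q24P, 0 in nam8D and 3 to 5 in mud1D. With every library kept, 3.94%, 4.39% and 4.57% of all genes rose over starved WT in hsh49::Q24P, nam8D and mud1D. A called larger response was then found for 3.35%, 4.22% and 3.99% of all genes. The lowest counts in hsh49::Q24P were near or below these shares. The counts in log phase and between mutants were 0 throughout.

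Among the genes named by rule for each comparison, the sign of single values turned as follows. Genes not named for WT, such as MRPS8 and MRPL11, were not followed there, although their WT differences were below that of the median gene. MRPL8 in WT became -0.25 with median centring, -0.19 with quantile normalization and -0.07 with spike-in scaling, MRPL32 in WT became -0.27, -0.29 and -0.09, and MRPL44 in WT, which did not pass under any scaling, became -0.27, -0.28 and -0.09. MRPL32 in hsh49::Q24P became -0.28 with each of the first 2. With spike-in scaling, hsh49::Q24P had -0.21 for MRPS35, -0.31 for MRPL44 and -1.04 for MRPL32, nam8D had -0.34 for MRPL11 and -0.38 for MRPS35, and mud1D had -0.07 for MRPL11 and -0.17 for MRPL44. With spike-in scaling in log phase, MRPL4 became 0.21 for hsh49::Q24P and 0.08 for nam8D, and MRPL35 0.28 for mud1D, none of which passed. The median over the genes turned to -0.0149 for nam8D over starved WT, and the median interaction to -0.124 in hsh49::Q24P and -0.351 in nam8D. The cause was not tested. The amounts of spike-in RNA are not given in the sources used here.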
